A study of Sus scrofa with 102 samples.

Results

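Transcription factor genes that the study listed as differing between 2 pig breed types were followed through fat, liver and muscle, at up to 3 ages. The members were the array probes whose gene symbol in the study's lists of differentially expressed genes belonged to a named family of transcription factors. They were 50 of the 43221 probes on the array, for 41 genes of 1522 that the lists name. By family they were 27 probes of 23 ZNF zinc finger genes, 5 probes of the bZIP genes ATF3, ATF5 and JUN, 4 probes of the nuclear receptors NR0B1, NR3C1, PPARA and PPARG, 3 probes of KLF9 and EGR1, and 1 probe each of the forkhead genes FOXD1 and FOXJ1. The other members were HOXA10 and SOX9 with 2 probes each, the ETS genes ELF1 and ELF2, and ID2, IRF2 and STAT3. A gene entered because its expression differed between the breed types in at least 1 tissue, so a difference between breed types in that tissue was what chose it and is given here as a description only. Differences between tissues and between ages, averaged over both breed types, were not used in the choice. Of the 50 probes, 48 passed the filter on dim spots in at least 1 of the 16 comparisons, while the probes of FOXJ1 and ZNF232 passed it in none.

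Transcription factors bind DNA at short motifs and raise or lower the transcription of nearby genes. Among the nuclear receptors, PPARG drives the adipocyte programme, PPARA drives fatty acid oxidation, NR3C1 is the glucocorticoid receptor, and NR0B1, also called DAX1, lacks the usual DNA-binding domain and represses other receptors. ATF3, JUN and EGR1 are stress and immediate-early genes, STAT3 carries cytokine signals to the nucleus, and the ZNF genes include many KRAB zinc finger repressors, most of which have no known target.

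The animals were female offspring of LWD sows, a cross of Landrace, Large White and Duroc, mated with a Landrace boar (LWDL) or a Meishan boar (LWDM). Each group held 6 LWDL and 6 LWDM fetuses aged 85 days, 5 LWDL and 6 LWDM sucklings aged 12 days, or 8 LWDL and 7 LWDM fattening pigs aged 5 months. Liver and longissimus dorsi muscle were measured at all 3 ages, and subcutaneous adipose tissue (fat) in sucklings and fattening pigs. For fat of fattening pigs 1 label field names liver while the others name fat, and these arrays were used as fat. One boar sired each breed type, so a difference between breed types cannot be told apart from a difference between those boars. Every array carried the Cy3-labeled RNA of 1 animal beside the same Cy5-labeled control, RNA of LWD sow liver, and the dyes were never swapped. A level here is the log2 ratio of sample over control, so that 0 means as much as in sow liver and 1 means a doubling, and a difference is one level minus another on that log2 scale. A probe was called when a difference exceeded 2-fold at an adjusted p under 0.05 over all tested probes, by limma.

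On the 102 arrays, the share of probes whose Cy3 signal was well above background ran from 65.7% to 81.3%. Of the adipocyte markers, LEP, PLIN1 and LPL averaged 5.32 to 6.64 in fat and at most 0.51 in liver. In muscle they averaged 1.87 to 3.12 in fetuses and 2.79 to 4.02 in fattening pigs, and their part in the muscle values below was not tested. The 14 skeletal muscle markers averaged 5.33 to 6.88 in muscle with 1 exception. That exception, the suckling muscle library labelled LWDL 2, had a muscle marker mean of 0.29 and resembled a fattening liver most. The fetal liver library labelled LWDL 2 also stood apart, with a median correlation of 0.209 to its group. No hepatocyte marker was named by the tables, so liver was not checked in this way. The markers that were named had been listed for a difference between breed types in some tissue, so their breed differences are a description. A score was averaged over 121 probes, chosen as called in the same direction between breed types in both fat and liver of sucklings. By that choice LWDL and LWDM did not overlap in fat or liver. In muscle, which was not used in the choice, LWDL ran from -0.12 to 1.86 and LWDM from -0.82 to 1.41. The medians in muscle, 1.26 in LWDL and -0.20 in LWDM, stood in the reverse order of those in fat, -0.84 and 0.97, and in liver, -0.94 and 1.03, so the breed type labels of suckling muscle may be mixed up. Suckling muscle was therefore left out of the comparisons of tissues and ages. In fat the 14 muscle markers also varied: their means had a median of 4.49 in LWDL and 5.36 in LWDM sucklings, and of 1.29 in LWDL and 2.95 in LWDM fattening pigs. Their part in the fat values below was not tested, and in bulk tissue fewer cells of a type and less RNA per cell cannot be told apart.

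In fattening pigs, many of these factors differed in level between liver and muscle. NR0B1, ATF5, ID2, SOX9, PPARA and ZNF219 were higher in liver, and HOXA10, ATF3, PPARG, JUN, ZNF644 and ZNF853 were higher in muscle. Of 43 member probes tested, 25 were called, 12 higher in liver and 13 higher in muscle, which was 58.1% against 43.6% of all probes tested (22.2% higher in liver and 21.4% higher in muscle). The median absolute difference was 1.25 over the tested members and 0.83 over all tested probes. HOXA10, a homeobox gene of posterior body patterning, had levels from -1.72 to 0.40 with a median of -0.53 in 15 livers, and from 3.84 to 8.69 with a median of 6.18 in 15 muscles. The groups did not overlap, and no liver array was well above background, so only a bound can be given: the Cy3 signal of muscle was at least 5.86-fold higher. A probe passed the filter where every array of 1 group was well above background, so one that passed only through the side where it was higher had to differ, and its differences are given below as descriptions with no p. Such a bound compares the bright group with the lowest signal that counted as detected, or with the dim probe's own signal where that was higher, and is open to dye bias. Where only some arrays of the dimmer group were well above background, the size of a difference rests on dim signals.

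NR0B1 ran the other way. Its levels in liver were between -0.51 and 1.59 with a median of 0.56, and in muscle between -7.04 and -5.17 with a median of -6.12. Its Cy3 signal in liver was at least 10.6-fold higher, since no muscle array was well above background. ATF3, a stress-responsive bZIP factor, had levels from -1.99 to 1.20 with a median of -1.33 in liver and from 1.57 to 5.55 with a median of 4.43 in muscle, a difference of -5.49 (SE 0.34, adjusted p = 2.29e-15). ATF5, a bZIP factor of the amino acid stress response, had a median of -0.02 in liver, with a range of -0.86 to 1.48, and of -3.86 in muscle, with a range of -5.60 to -2.98. Liver was at least 4.24-fold higher by signal, with no muscle array well above background. The related genes ATF3 and ATF5 thus lay on opposite sides. ID2, which blocks basic helix-loop-helix factors, had levels from -3.10 to -0.73 with a median of -1.56 in liver, and from -6.03 to -4.65 with a median of -5.21 in muscle. Liver was higher by 3.66 (SE 0.12, adjusted p = 2e-22), although ID2 was below the sow liver control on every array of both tissues.

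The nuclear receptors PPARG and PPARA were highest in different tissues. PPARG had levels from 3.53 to 4.62 with a median of 4.00 in fat, from 1.52 to 2.68 with a median of 2.51 in muscle, and from -2.13 to 0.14 with a median of -0.94 in liver, so that no 2 tissues overlapped. Fat exceeded liver by 4.94 (SE 0.11, adjusted p = 3.15e-26). For PPARG, 11 of 15 liver arrays were well above background. PPARA had medians of -0.39 in liver, -2.32 in fat and -3.31 in muscle, and was well above background on every liver and fat array but on only 2 of 15 muscle arrays. Liver minus muscle was 2.88, with no overlap, a size that rests on dim muscle signals, while fat minus liver was -1.77 with some overlap. NR0B1 in fat had levels from -7.01 to -4.51 with a median of -5.63, and was well above background on 2 of 15 fat arrays. The difference of fat minus liver in level was -6.36, a size that rests on dim fat signals. After another normalization the mean log2 Cy3 signals were 9.95 in liver and 6.49 in fat, which lie closer together.

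Between fat and liver, 19 of 41 tested member probes were called, 9 higher and 10 lower in fat, or 46.3% against 36.1% of all probes tested (18.8% higher, 17.3% lower). SOX9, a factor of biliary and cartilage cells, had levels from 0.49 to 2.74 with a median of 1.43 in liver and from -4.00 to -0.04 with a median of -2.25 in fat, where 3 of 15 arrays were well above background, a difference of -3.65. ATF5 in fat ran from -4.89 to -2.19 with a median of -3.10 and was well above background on 9 of 15 arrays, as was ZNF219, and fat minus liver was -3.42 (SE 0.14, adjusted p = 8.39e-20). ZNF219 was close to the control in liver, from -0.18 to 0.51 with a median of 0.25, and low in fat, from -4.71 to -1.76 with a median of -2.65. Its difference was -2.97 (SE 0.14, adjusted p = 1.83e-18). These 3 genes and NR0B1 did not overlap between fat and liver. Also called higher in fat were ZNF664-FAM101A by 2.38, EGR1 by 1.68, JUN by 1.57, ZNF853 by 1.23, ATF3 by 1.21 and ZNF615 by 1.12. The genes called lower in fat included ELF1 (-2.37), ZNF324B (-2.30), ID2 (-1.87) and IRF2 (-1.38).

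Fat and muscle were the closest pair by the share of members called. Of 39 member probes tested, 14 were called, 4 higher and 10 lower in fat, which at 35.9% was near the 35.7% of all probes tested (19.2% higher, 16.6% lower). ATF3 in fat had levels from -2.42 to 2.40 with a median of 0.41, and fat minus muscle was -4.27 (SE 0.40, adjusted p = 4.55e-11). HOXA10 in fat spread from -0.23 to 6.93 with a median of 2.23 and was well above background on 9 of 15 arrays. Its difference from muscle was -3.42, with overlap. ZNF664-FAM101A, a label that joins a zinc finger gene to its neighbour, was the member with the clearest excess in fat, from -1.03 to 0.93 with a median of 0.38, against -3.32 to -2.22 with a median of -3.01 in muscle. The difference was 3.08 (SE 0.13, adjusted p = 3.86e-19). RefSeq gives the pig gene ID of this probe the symbol RFLNA. ZNF644 was above background on no fat and no liver array and on 9 of 15 muscle arrays, at 0.26 to 4.19 with a median of 2.04 in muscle, so only a bound can be given: the Cy3 signal of muscle was at least 1.25-fold that of fat and at least 1.35-fold that of liver. ID2 was higher in fat by 1.79 (SE 0.15, adjusted p = 2.91e-12), with fat levels between -4.80 and -2.85.

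**Figure D1:**
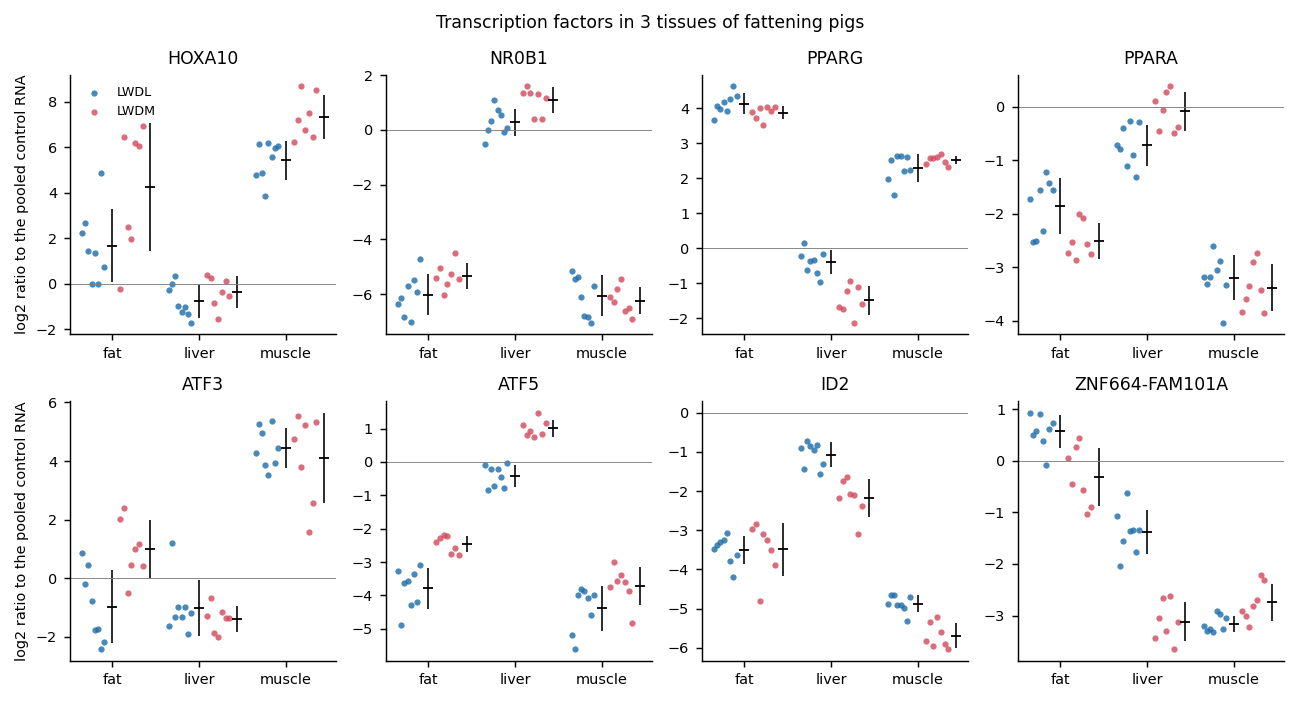
Levels of 8 member genes in fat, liver and muscle of fattening pigs, as the log2 ratio of sample over sow liver control (vertical axis); each point is 1 array, the colour gives the breed type, and bars are the mean ± SD. HOXA10 and ATF3 sit highest in muscle, NR0B1, PPARA, ATF5 and ID2 in liver, and PPARG and ZNF664-FAM101A in fat.

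The remaining members called between liver and muscle of fattening pigs are given by liver minus muscle. JUN (-3.27), ZNF853 (-2.36), ELF2 (-1.37), EGR1 (-1.32) and ZNF608 (-1.25) were lower in liver. SOX9 (3.04), ZNF219 (2.84), IRF2 (1.74), ZNF324B (1.38), ZNF624 (1.25), ELF1 (1.05) and STAT3 (1.05) were higher. Of the dimmer group's 15 arrays, those well above background were 1 for ZNF853, 4 for SOX9, 11 for ZNF219 and 1 for ZNF624. The 3 probes of JUN gave -3.32, -3.27 and -3.19 and share 1 target, as do the 2 probes of SOX9, which gave 3.04 and 1.57. Part of these counts rests on probes that were bright in 1 tissue only and so had to differ. With only probes well above background on every array, 12 of 24 member probes were called between liver and muscle (50% against 38.2% of all probes so filtered), 9 of 24 between fat and liver (37.5% against 30.5%) and 8 of 24 between fat and muscle (33.3% against 31%).

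In fetuses, 19 of 40 member probes were called between liver and muscle, 5 higher and 14 lower in liver, or 47.5% against 34.7% of all probes tested (17.1% higher, 17.5% lower). With only probes well above background on every array, it was 10 of 26, or 38.5% against 27%. ATF5 already had the liver pattern, from -0.29 to 0.84 with a median of 0.28 in liver and from -5.50 to -2.32 with a median of -4.88 in muscle, where 2 of 12 arrays were well above background. The difference of 4.70 rests in size on dim muscle signals. ZNF219 had a median of -0.72 in liver and of -4.61 in muscle, where no array was well above background, and was at least 2.13-fold higher by signal in liver. FOXD1, a forkhead factor of mesenchymal cells, was well above background on 12 of 12 fetal muscle arrays, from 2.60 to 4.96 with a median of 3.38, and on none of the livers. It was at least 1.74-fold higher by signal in muscle.

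ZNF664-FAM101A was higher in fetal muscle than in fetal liver, while at 5 months its median was lower in muscle, with fetal levels from -0.93 to -0.04 in muscle and from -4.18 to 0.22 in liver. The difference of -2.66 (SE 0.32, adjusted p = 6.31e-08) was -2.98 without the liver labelled LWDL 2, which held the value of 0.22. ZNF772 had levels from 3.03 to 3.79 with a median of 3.25 in fetal muscle and from -0.07 to 2.30 with a median of 0.61 in fetal liver, a difference of -2.57 (SE 0.21, adjusted p = 5.59e-11). The pig symbol listed for this probe is ZNF792, and that for the probe of ZNF304 is ZNF134. ID2 (2.52) and NR0B1 (1.39) were also higher in fetal liver, NR0B1 with 8 of 12 liver and 5 of 12 muscle arrays well above background. Without the liver labelled LWDL 2 the difference of NR0B1 was 1.10. PPARA was well above background on 12 of 12 fetal livers and no fetal muscle, at least 1.49-fold higher by signal in liver. Lower there were ZNF615 (-2.36), PPARG (-2.30), ZNF853 (-1.95), KLF9 (-1.88), NR3C1 (-1.83), JUN (-1.78), ATF3 (-1.53), ZNF644 (-1.47) and ZNF304 (-1.16), and of 12 liver arrays 5 for ZNF615, 6 for ZNF853 and 1 for ZNF644 were well above background. Leaving out that liver library ended none of these calls.

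With age, the zinc finger genes ZNF77 and ZNF878 had lower levels at 5 months in fat, liver and muscle, given with no p, short of 2-fold in fat and liver under another normalization, and NR3C1, IRF2 and STAT3 rose from sucklings to fattening pigs in both fat and liver. The probes of ZNF77 and ZNF878 have the same pig gene ID, so they may report 1 gene. In liver from sucklings to fattening pigs, 19 of 44 tested member probes were called, 10 higher and 9 lower at 5 months, or 43.2% against 28.1% of all probes tested (19.3% higher, 8.87% lower). ZNF77 had levels from 2.41 to 4.53 with a median of 3.44 in suckling liver and from -1.20 to 1.16 with a median of 0.15 in fattening liver, where 4 of 15 arrays were well above background. The change was -3.33 without overlap, but it was -0.76 after another background correction and normalization (normexp and loess), short of 2-fold. ZNF878, well above background on 1 of 15 fattening livers, had a change of -2.19, which was -0.43 in the same alternative.

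NR0B1 rose in liver from levels of -3.34 to -1.17 with a median of -2.19 in sucklings to the -0.51 to 1.59 given above, a change of 3.00 (SE 0.21, adjusted p = 1.03e-12). IRF2, an interferon regulatory factor that represses interferon genes, had levels from -1.77 to -0.38 with a median of -0.86 in suckling liver and from 1.00 to 1.87 with a median of 1.34 in fattening liver, a change of 2.30 (SE 0.12, adjusted p = 1.98e-15). Neither gene overlapped between the ages. ELF1, an ETS factor of blood and vascular cells, changed by 2.30 (SE 0.13, adjusted p = 1.04e-14), from a median of -1.54 in sucklings, with 6 of 11 arrays well above background, to 0.48. It was 0.78 under normexp and loess. NR3C1 rose in liver by 1.67, from a median of -1.52 to 0.21. Other calls were ZNF672 (1.58), ID2 (1.43), STAT3 (1.39), PPARA (1.16) and ZNF219 (1.10), and in the other direction ZNF853 (-1.91), PPARG (-1.48), ZNF713 (-1.35), ZNF2 (-1.26), SOX9 (-1.04) and ZNF615 (-1.04). Under normexp and loess the split of 10 higher and 9 lower became 6 higher and 0 lower.

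Between fetal and suckling liver, 10 of 39 member probes were called, 2 higher and 8 lower in sucklings, or 25.6% against 22.3% of all probes tested (10.5% higher, 11.8% lower). KLF9, a glucocorticoid- and thyroid-hormone-responsive factor, had levels from -5.36 to 0.75 with a median of -4.33 in fetal liver and from -0.82 to 0.81 with a median of -0.09 in suckling liver. The single fetal value of 0.75 belonged to the library labelled LWDL 2. KLF9 rose by 4.09 (SE 0.49, adjusted p = 1.54e-07), and by 4.56 without that library. ZNF672 fell from between -0.47 and 0.68 to between -3.68 and -0.93, a change of -2.24 (SE 0.20, adjusted p = 1.96e-09). EGR1, a zinc finger factor induced by growth signals, fell from a median of 0.67 in fetal liver to -1.70 in suckling liver, a change of -1.97 (SE 0.24, adjusted p = 2.14e-07). SOX9 rose from a median of 0.89 to 2.42, by 1.65 (SE 0.13, adjusted p = 3.14e-10), before its later decline. ID2 went from a median of -1.59 in fetuses to -3.11 in sucklings, a change of -1.65 (SE 0.17, adjusted p = 2.5e-08), and back to -1.56 in fattening pigs. ZNF304 (-1.43), STAT3 (-1.16) and ZNF335 (-1.08) were also lower in suckling liver.

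The erythroid marker HBE1, embryonic globin, fell over the same ages in liver, from medians of 4.03 in LWDL and 3.13 in LWDM fetuses to 0.84 and -0.69 in sucklings. Its part in the changes of the members was not tested.

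In fat, 17 of 41 member probes were called between sucklings and fattening pigs, 10 higher and 7 lower at 5 months, or 41.5% against 16.3% of all probes tested (8.32% higher, 7.96% lower). ZNF77 had levels from 1.25 to 3.69 with a median of 3.03 in sucklings and from -1.60 to 2.92 with a median of 0.00 in fattening pigs, where 6 of 15 arrays were well above background, and changed by -2.43. All 6 were LWDM arrays, so this average over breed types joins groups that differed at 5 months. ID2 rose from between -5.97 and -4.70 to between -4.80 and -2.85, by 1.86 (SE 0.17, adjusted p = 6.93e-10). ZNF219 had a median of -4.71 in sucklings, with 1 of 11 arrays well above background, and changed by 1.65. ZNF672 rose by 1.62 (SE 0.25, adjusted p = 2.51e-06), from a median of -1.93 to -0.48, and ZNF878 changed by -1.57, with 3 of 15 fattening arrays well above background. Further calls were EGR1 (1.51), IRF2 (1.47), NR3C1 (1.40), STAT3 (1.26), ATF3 (1.18), ZNF772 (-1.46), ZNF853 (-1.36), ZNF615 (-1.26) and ZNF324B (-1.08). Under normexp and loess only 6 of the 17 probes were called, 5 higher and 1 lower, with ZNF77 at -0.56, ZNF878 at -0.40 and ZNF219 at 0.17. The muscle markers of fat fell over the same ages, as given above, and their part in these changes was not tested.

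In muscle from fetuses to fattening pigs, 22 of 40 member probes were called, 5 higher and 17 lower at 5 months, or 55% against 36.7% of all probes tested (17.5% higher, 19.2% lower). ATF3 had levels from 0.06 to 2.20 with a median of 0.84 in fetal muscle and rose by 3.29 (SE 0.36, adjusted p = 2.24e-09). ZNF77 had levels between 2.19 and 4.28 in fetuses and between -1.81 and 1.66 in fattening pigs, a change of -3.17, with 6 of 15 fattening arrays well above background. HOXA10 was uneven among fetuses, from 0.00 to 7.27 with a median of 2.83 and 9 of 12 arrays well above background, and changed by 3.08, or by 3.95 on its other probe. A level of exactly 0.00 was recorded where neither channel rose above noise. SOX9 had a median of 1.28 in fetuses and -1.62 in fattening pigs, with 4 of 15 fattening arrays well above background, a change of -2.81. ZNF772 fell from a median of 3.25 to 0.73, with fattening values between 0.53 and 1.06, and its change of -2.56 (SE 0.06, adjusted p = 5.72e-23) had the smallest error of these. ELF1 (1.78, from 1 of 12 fetal arrays well above background) and KLF9 (1.62) were also higher at 5 months. Lower were ZNF664-FAM101A (-2.52), ZNF615 (-2.28), ZNF304 (-1.76), ZNF713 (-1.63), ZNF335 (-1.46), ZNF12 (-1.46), ZNF324B (-1.38), ID2 (-1.36), FOXD1 (-1.30, 4 of 15 fattening arrays well above background), ZNF853 (-1.22) and ZNF829 (-1.03). ZNF878 was well above background on no fattening muscle array and was at least 1.66-fold higher by signal in fetuses. With only probes well above background on every array, 9 of 27 member probes were called in liver between sucklings and fattening pigs (33.3% against 23.2% of all probes so filtered), 8 of 23 in fat (34.8% against 12.1%) and 8 of 23 in muscle (34.8% against 31.8%).

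**Figure D2:**
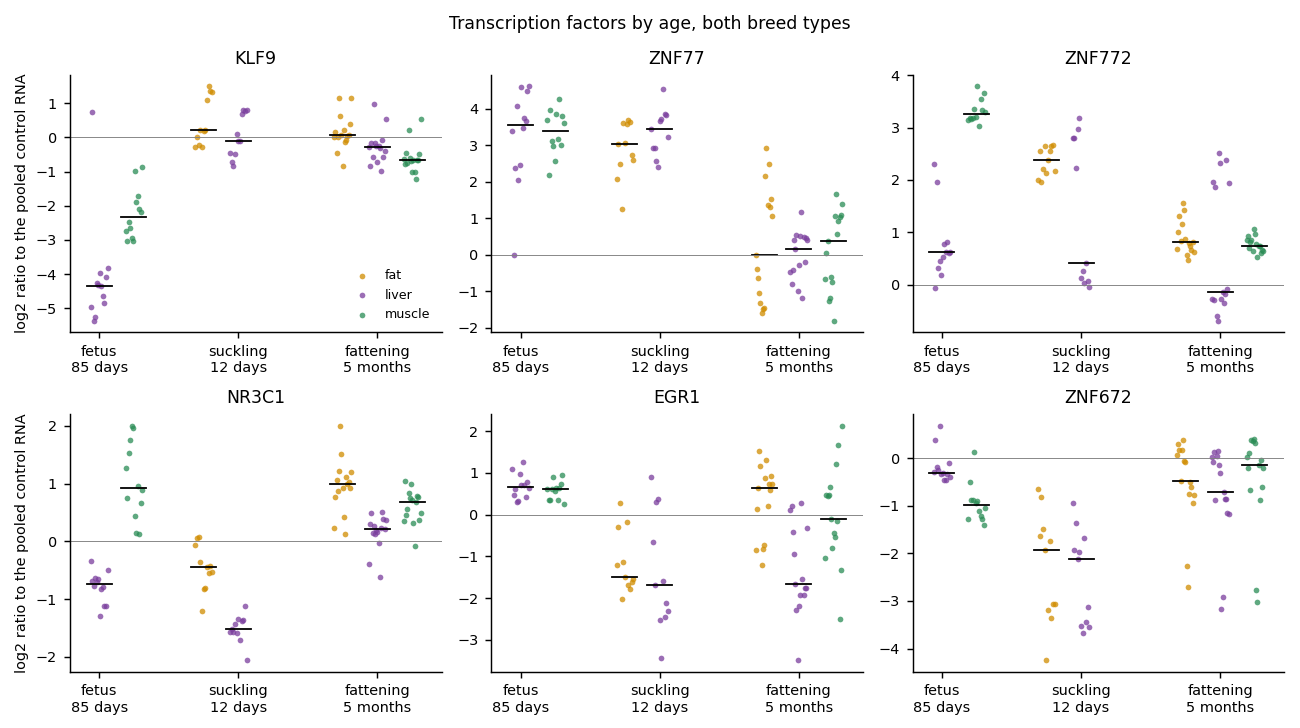
Levels of KLF9, ZNF77, ZNF772, NR3C1, EGR1 and ZNF672 by age, as the log2 ratio of sample over sow liver control; each point is 1 array of either breed type, the colour gives the tissue and the black line the median, with suckling muscle left out and no fetal fat measured. The fetal livers lie between -5.36 and -3.83 for KLF9 apart from 1 array at 0.75. The median of ZNF77 over both breed types is lower at 5 months in all 3 tissues, though the breed types differed in fattening fat.

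Over these 8 comparisons of tissues and ages, 35 of the 41 genes were called at least once. The like share over all probes was not counted. Single comparisons called 16.3% to 43.6% of all tested probes, so this count is not a trait of the members. Those called in none were FOXJ1, ZNF232, ZNF280B, ZNF554, ZNF622 and ZNF7. ZNF280B, for example, had medians between -1.52 and 0.58 in every group.

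Known partners and targets of these factors were looked up in lists, but only genes that the study's tables name carry a symbol here, so a list holds genes chosen on these same samples, and each count stands against the share of all probes called in that comparison, given above. For PPARA, 3 of 19 target genes were named. All 3 were higher in liver than in muscle of fattening pigs, with a median difference of 3.32 against a median of -0.01 over all tested probes. They included CPT2, of mitochondrial fatty acid import, by 3.32 (SE 0.12). In fetuses 1 of the 3 was higher in liver and 0 were lower. From fetal to suckling liver all 3 rose, CPT2 by 2.13 (SE 0.30). PPARA itself was not called there. Between fat and liver, 1 of the 3 was called, lower in fat, and all 3 were higher in fat than in muscle.

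For PPARG, 5 of 12 target genes were named, and 4 of 5 were higher in fat than in liver with a median of 5.97. CD36, a fatty acid transporter, exceeded liver by 9.88 and PLIN1, which coats lipid droplets, by 5.97. In fat against muscle, 4 of 5 were higher, PLIN1 by 4.84. Of 4 immediate-early genes named of 32, 3 were lower in liver than in muscle, as were ATF3, JUN and EGR1. Between fat and liver, where those 3 members were higher in fat, 1 of the 4 was higher in fat (CTGF, 1.40) and 1 lower (SGK1, -1.76). From fetal to suckling liver, where EGR1 fell, 2 fell and 1 rose. Of 5 glucocorticoid-responsive genes named of 14, 4 were higher in liver than in muscle at 5 months and 4 in fetuses, where NR3C1 was lower in liver, and all 5 were lower in fat than in liver. From fetal to suckling liver, where KLF9 rose, 3 rose and 0 fell. From suckling to fattening liver, where NR3C1 rose, 0 rose and 2 fell, G6PC by a change of -1.67 and MT2A by -2.23. Both named biliary genes of 10, ONECUT1 (4.85) and KRT19 (1.50), were higher in liver than in muscle, on the side of SOX9. The HOX partner PKNOX2, 1 of 9 listed, was lower in liver than in muscle, as was HOXA10, with a difference of -3.43 (SE 0.05). Of 3 acute phase genes of 23, 1 was higher and 1 lower in liver than in muscle, as was the case for the 2 genes named of 14 in the amino acid and unfolded protein response. In the list of BMP signalling and ID partners, 3 of 13 were named and 1 of 2 tested was lower in liver. No KRAB partner of 9 was named.

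Between the breed types, the members were chosen for a difference in at least 1 tissue, and a gene is listed for fat, liver, muscle or several of these. The tables listed 16 member probes for fat, 28 for liver and 26 for muscle. The genes listed for several tissues were ATF5, ELF1 and ZNF672 (fat and liver), KLF9, ZNF324B, ZNF77 and HOXA10 (fat and muscle), ID2, STAT3, ZNF7, ZNF554, ZNF615 and ZNF853 (liver and muscle), and ELF2 and ZNF335 (all). A test free of the tables of the tissue itself was possible only for members not listed for that tissue. Such members had not been listed there by the study from these same arrays at like thresholds. A low count of calls among them was therefore largely set in advance. Even so, the 3 tissues presumably came from the same pigs, which the labels do not state, so a test in one tissue is not independent of a choice made in another. Counts are therefore given first for members listed through another tissue, as planned, and then for those that the tissue's own table does not list. Differences are LWDM minus LWDL throughout, and only the latter members get a p.

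In suckling fat, 8 of 32 member probes listed through another tissue were called, 6 higher and 2 lower in LWDM, or 25% against 1.47% of all probes tested (0.689% higher and 0.78% lower in LWDM). Of the 23 tested probes that the fat table does not list, 4 were called and all were higher in LWDM, namely STAT3, ZNF853, ZNF622 and HOXA10, the last of which passed the filter only through LWDM. In fattening fat, 8 of 30 were called, 2 higher and 6 lower in LWDM, or 26.7% against 3.08% (1.77% higher, 1.31% lower), but only ATF3, 1 of 22, was not listed for fat itself. In fetal liver, 1 of 24 was called, higher in LWDM, or 4.17% against 0.834% (0.451% higher, 0.383% lower), and 0 of 15 when members listed for liver were left out. In suckling liver, 5 of 26 were called, 3 higher and 2 lower, or 19.2% against 1.7% (0.78% higher, 0.924% lower), and 0 of 14 likewise. In fattening liver, 9 of 24 were called, 3 higher and 6 lower, or 37.5% against 2.19% (1.1% higher, 1.09% lower), and 1 of 12 likewise, ZNF324B. In fetal muscle, 6 of 28 were called, 5 higher and 1 lower, or 21.4% against 1.51% (0.673% higher, 0.835% lower), and 0 of 16 likewise. In fattening muscle, 8 of 28 were called, 3 higher and 5 lower, or 28.6% against 1.4% (0.799% higher, 0.605% lower), and 2 of 17 likewise, both probes of ZNF672. In suckling muscle, as labelled, limma called 0 of 26 members and 0% of all probes, with 1 member and 793 probes of 27937 at an unadjusted p under 0.05. Since those labels may be mixed up and the library LWDL 2 resembled liver, this count does not show that the breed types were alike there. Away from suckling fat, the members not listed for the tissue itself gave few calls. Their absence from that tissue's list largely set this, so it does not show that the breed types were alike.

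**Figure D3:**
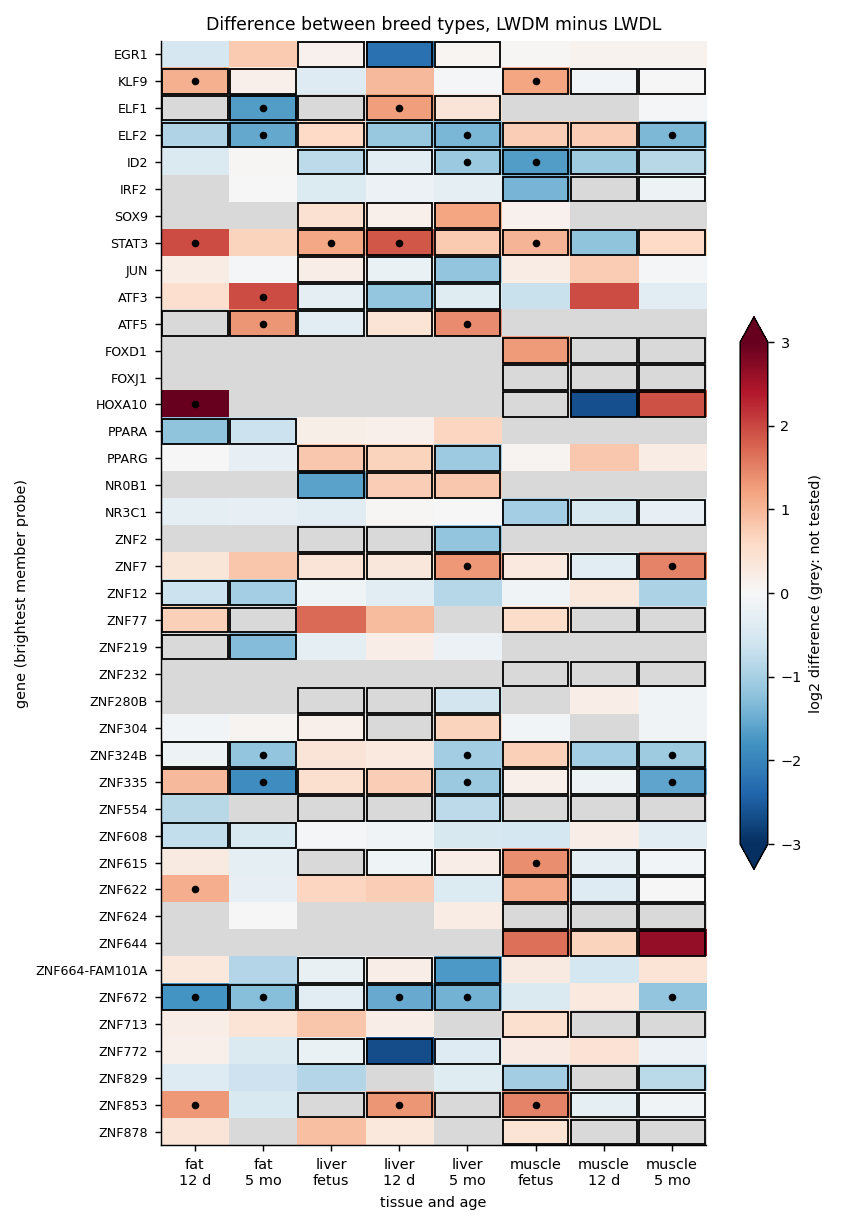
Differences of LWDM minus LWDL (log2, colour from -3 to 3) for the brightest probe of each of the 41 member genes (rows) in 8 combinations of tissue and age (columns); grey marks probes not tested, a black box marks genes that the table of that tissue lists, and a dot marks calls among members listed through another tissue. STAT3 is red in every fetal and suckling column other than suckling muscle, and ELF2 and ZNF335 are blue in all 3 tissues of fattening pigs.

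STAT3 was higher in LWDM in suckling fat on every array. The 5 LWDL arrays read -2.74, -3.10, -2.97, -2.07 and -2.56, and the 6 LWDM arrays ran from -1.08 to -0.33 with a median of -0.74. The groups did not overlap, and LWDM was higher by 1.96 (SE 0.19, adjusted p = 0.000354). With the slide as a block, where 1 slide held both breed types, the difference was 2.50 (adjusted p = 0.00874). The study listed STAT3 for liver and muscle, and its values there are a description. In suckling liver the LWDL arrays read -2.26, -2.45, -2.43, -1.87 and -2.42, against -0.89 to -0.20 in LWDM, a difference of 1.87. In fetal liver LWDL ran from -1.14 to -0.09 and LWDM from 0.25 to 0.53, and in fetal muscle LWDL ran from -1.94 to -0.80 and LWDM from -0.36 to -0.08. None of these 4 pairs of groups overlapped. By 5 months the groups overlapped in fat, with LWDL from -1.49 to -0.03 and LWDM from -1.81 to 0.33, and the difference of 0.67 had an adjusted p of 0.102. The change of the difference with age in fat was -1.29 (adjusted p = 0.045), by a test added after these values were seen.

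Of the 3 genes named in the list of STAT3 and acute phase genes, 0 were called in suckling fat, where 1.47% of all probes were. In liver, 1 of 2 tested was lower in LWDM sucklings, and 0 of 3 were called in fetuses.

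ZNF853 and ZNF622, both zinc finger genes, were higher in LWDM in the same comparison. ZNF853 read 0.93, 0.70, 0.98, 0.89 and 1.80 in LWDL and 2.19 to 2.61 with a median of 2.28 in LWDM suckling fat, without overlap, and differed by 1.29 (SE 0.18, adjusted p = 0.00245). With the slide as a block it was 1.59 at an adjusted p of 0.114, and under normexp and loess it was 0.73, short of 2-fold. RefSeq gives the pig gene of this probe the symbol ZNF787. In the tissues it was listed for, LWDM was higher by 1.32 in suckling liver and by 1.49 in fetal muscle, again without overlap. At 5 months in fat it lay lower in LWDM by a difference of -0.46, below 2-fold.

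ZNF622, known as a ribosome biogenesis factor with zinc fingers, was listed only for muscle, so its values in fat and liver could be tested. In suckling fat LWDL read -0.70, -0.78, -0.70, -0.67 and -0.41 and LWDM ran from 0.22 to 0.63, a difference of 1.08 (SE 0.10, adjusted p = 0.000189) that was 1.14 at an adjusted p of 0.0524 with the slide as a block. In suckling liver LWDL read -0.04, 0.07, -0.17, -0.05 and 0.31 and LWDM ran from 0.61 to 0.92, and the difference of 0.73 (SE 0.09, adjusted p = 0.000864) stayed below 2-fold. Fetal liver gave 0.64 (SE 0.09, adjusted p = 0.00279), with LWDL from -0.14 to 0.37 and LWDM from 0.59 to 0.93. No group pair of ZNF622 in these 3 comparisons overlapped, nor did fetal muscle, where LWDM was higher by 1.13. In fattening pigs the sign was negative, with -0.24 in fat (adjusted p = 0.191) and -0.40 in liver (adjusted p = 0.0124).

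HOXA10 was higher in LWDM in suckling fat and was among the most variable members. On its brighter probe, listed only for muscle, the LWDL arrays read 3.11, 0.48, -0.06, 0.00 and -0.97 and the LWDM arrays ran from 1.74 to 6.04 with a median of 3.63. The probe was well above background on 1 of 5 LWDL and 6 of 6 LWDM arrays, so it passed the filter only through LWDM. The difference was 3.49, with overlap from LWDL 1, and was not called with the slide as a block (3.10, adjusted p = 0.534) or by the methods' Student test (adjusted p = 0.0739). The other probe, listed for fat and muscle, read 2.35, 0.00, 0.00, 0.10 and 0.00 against 3.71 to 6.24. In fattening muscle, where the gene was chosen, LWDL ran from 3.84 to 6.18 and LWDM from 6.24 to 8.69. HOXA10 was high in muscle, and the muscle markers of suckling fat had medians of 4.49 in LWDL and 5.36 in LWDM. Their part in the HOXA10 values was not tested.

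KLF9 was higher in LWDM sucklings in fat, where it was listed, by 1.06, and in suckling liver, where it was not, by 0.96 (SE 0.22, adjusted p = 0.0203), just short of 2-fold. In fetal muscle, LWDL ran from -3.02 to -2.47 and LWDM from -2.18 to -0.88. ZNF672 ran lower in LWDM at both ages. In suckling fat the LWDL arrays read -0.66, -1.64, -0.81, -1.49 and -1.93 and the LWDM arrays ran from -4.24 to -1.73, and in suckling liver LWDL read -0.93, -1.93, -1.37, -2.12 and -1.98 against -3.68 to -1.68. Fat and liver chose ZNF672, so its test was in muscle. In fattening muscle LWDL ran from -0.66 to 0.40 with a median of 0.21 and LWDM from -3.02 to -0.04 with a median of -0.60. The difference was -1.18 (SE 0.43, adjusted p = 0.0469), but was -1.14 at an adjusted p of 0.134 with the slide as a random block, and -0.87 under normexp and loess. The pigs labelled LWDM 1 and 2 were low in every tissue, at -2.27 and -2.71 in fat, -3.18 and -2.91 in liver, and -2.77 and -3.02 in muscle.

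Fattening pigs were described by ELF2, ZNF335 and ELF1. ELF2, an ETS factor, was listed for all 3 tissues. It ran from -0.13 to 0.64 in LWDL and from -1.83 to -0.42 in LWDM in fat, from -0.26 to 0.30 and -1.86 to -0.74 in liver, and from 1.12 to 1.67 and -0.75 to 0.89 in muscle. The groups overlapped in none of the 3 tissues, and the differences were -1.53, -1.37 and -1.34. ZNF335, a zinc finger coactivator, differed by -1.86 in fat, -1.12 in liver and -1.57 in muscle. Its LWDM values included 1 animal far below the others, LWDM 5, at -2.46, -2.59 and -3.76. In sucklings ZNF335 pointed the other way in fat, where LWDL read 0.10, -0.26, 0.34, 0.30 and -0.11 and LWDM ran from 0.80 to 1.48. ELF1 in fattening fat ran from -1.38 to -0.17 in LWDL and from -4.06 to -1.47 in LWDM, a difference of -1.68, while suckling liver read -2.43, -1.94, -1.89, -2.50 and -3.42 in LWDL and -1.54 to -0.67 in LWDM. No suckling LWDL liver was well above background for ELF1, and LWDM was at least 1.24-fold higher by signal.

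**Figure D4:**
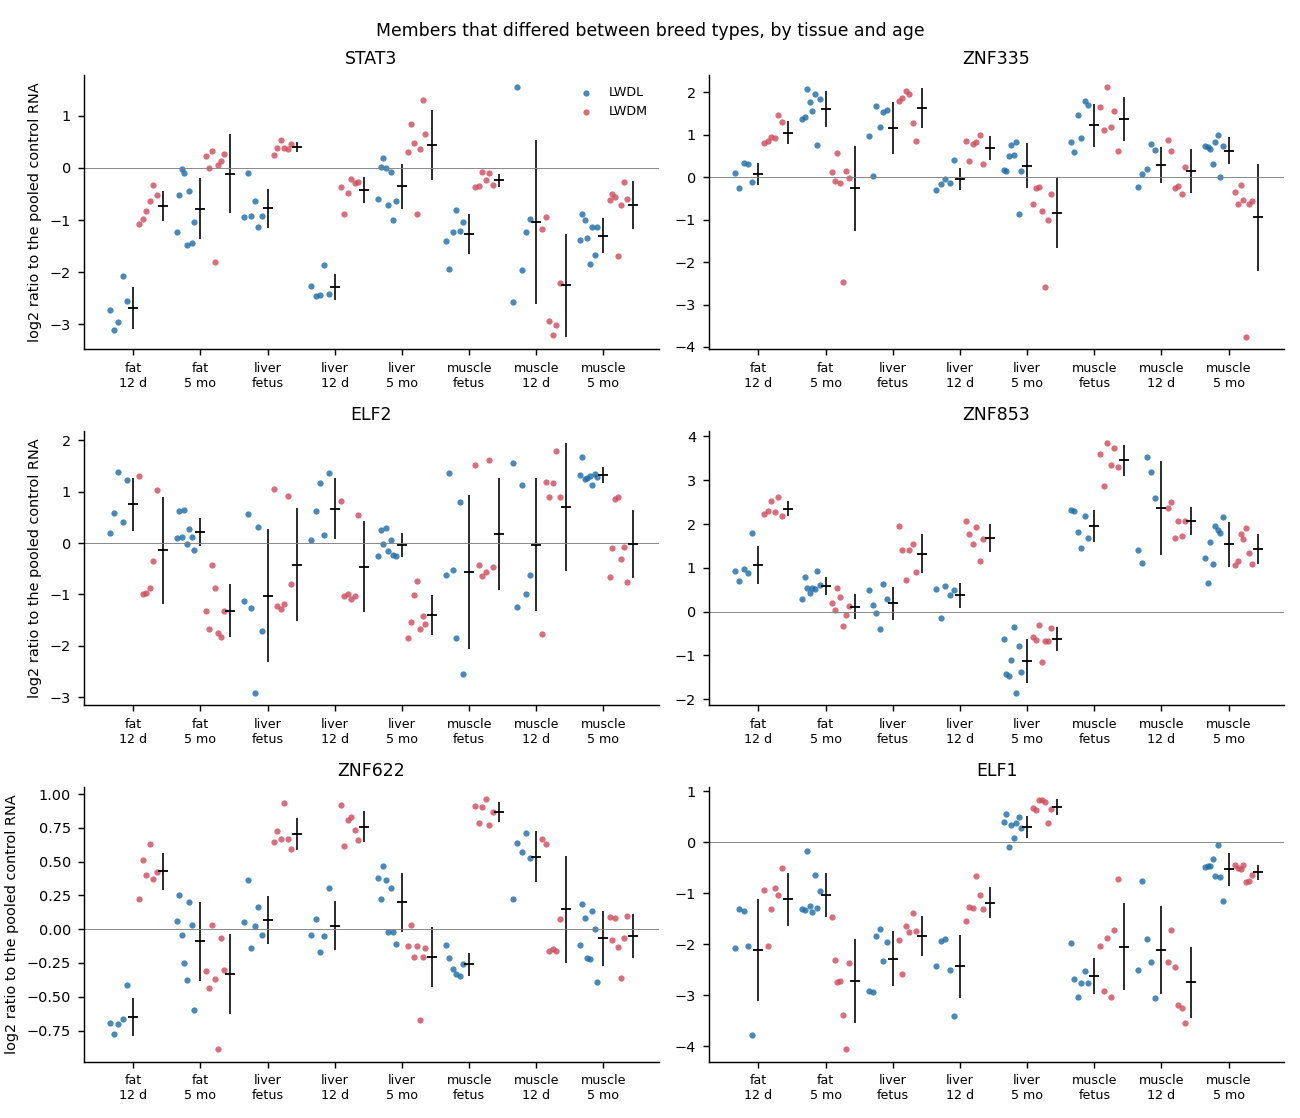
Levels of STAT3, ZNF335, ELF2, ZNF853, ZNF622 and ELF1 by tissue, age and breed type, as the log2 ratio of sample over sow liver control; each point is 1 array and bars are the mean ± SD. STAT3, ZNF853 and ZNF622 are higher in LWDM sucklings in fat and liver, while ELF2 and ZNF335 are lower in LWDM fattening pigs in all 3 tissues.

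ATF3 was the member called in fattening fat that the fat table does not list. LWDL ran from -2.42 to 0.87 with a median of -1.26 and LWDM from -0.52 to 2.40 with a median of 1.01, a difference of 1.96 (SE 0.53, adjusted p = 0.00947). The LWDL arrays fell apart by slide, with replicates 1 to 4 at 0.87, -0.20, 0.46 and -0.79 and replicates 5 to 8 at -1.76, -1.74, -2.42 and -2.19. Slides of fattening pigs each held 1 breed type, so as a fixed term the slide and the breed type cannot be told apart. ATF5 was listed for fat and liver, where it ran from -4.89 to -3.10 in LWDL and -2.80 to -2.19 in LWDM fat, and from -0.86 to -0.02 and 0.75 to 1.48 in liver. Neither pair overlapped. The difference in fat was 1.33, and 0.28 under normexp and loess.

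ZNF324B was lower in LWDM fattening pigs in all 3 tissues and was tested in liver. There LWDL ran from -0.98 to 0.44 with a median of -0.17 and LWDM from -1.77 to 0.28 with a median of -1.42, a difference of -1.04 (SE 0.28, adjusted p = 0.0111), which was -0.74 under normexp and loess. LWDM 1 was the highest of its group in every tissue, at -2.35 in fat, 0.28 in liver and -1.71 in muscle. RefSeq gives this probe's gene the symbol ZNF789. ZNF12, listed for fat, was lower in LWDM in both other tissues without reaching 2-fold. In liver LWDL ran from -0.72 to -0.26 and LWDM from -1.62 to -0.91, a difference of -0.85 (SE 0.10, adjusted p = 4.8e-05), and in muscle LWDL ran from -0.47 to 0.17 and LWDM from -1.42 to -0.63, a difference of -0.94 (SE 0.12, adjusted p = 8.96e-05). Neither pair overlapped.

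ZNF7 was higher in LWDM fattening pigs in liver and muscle, where it was listed, by 1.31 and 1.49, and by 0.84 in fat (adjusted p = 0.0133), where it was not. Within LWDL its levels in liver were -0.74, -0.80, -1.26 and -1.71 in replicates 1 to 4 and -2.90, -2.69, -2.74 and -2.98 in replicates 5 to 8, which were on another slide. ID2 was lower in LWDM fetal muscle, from -5.13 to -4.42 against -3.71 to -2.75 in LWDL, and in fattening liver, from -3.10 to -1.65 against -1.56 to -0.73, and was listed for both tissues. ZNF615 ran from 2.05 to 3.10 in LWDL and from 3.54 to 3.95 in LWDM fetal muscle. ZNF77 was bright in LWDM fattening fat on 6 of 7 arrays, from 1.06 to 2.92, and above background on no LWDL array, at least 1.20-fold higher by signal, and it was higher by 0.95 in suckling liver, where it was not listed (adjusted p = 0.0208). ZNF554 differed by -0.83 in suckling fat.

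Members listed for 1 tissue only are described there without a test. In suckling liver ZNF772 read 2.80, 2.79, 2.22, 2.98 and 3.17 in LWDL and -0.05 to 0.41 in LWDM, the widest gap of these (-2.66). EGR1 differed by -2.25 in the same tissue, and ATF3 by -1.17. ZNF304 ran from -2.79 to -1.22 in LWDL and from -1.03 to -0.39 in LWDM suckling liver, and ZNF280B from -0.61 to 0.05 and from -2.97 to -1.04. NR0B1 in fetal liver ran from -3.51 to 0.48 in LWDL and from -4.62 to -3.54 in LWDM. The LWDL values include the library labelled LWDL 2, which stood apart. Leaving it out lowered the NR0B1 difference of fetal liver minus muscle to 1.10, so LWDL was lower without it. In suckling fat PPARA read -2.27, -2.41, -1.72, -2.11 and -2.49 in LWDL and -4.39 to -2.70 in LWDM (-1.20). In fattening liver LWDM was lower for ZNF664-FAM101A (-1.73), ZNF2 (-1.19), JUN (-1.18) and PPARG (-1.08), and higher for SOX9 (1.19), for which LWDL ran from 0.49 to 1.43 and LWDM from 1.59 to 2.74.

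In fattening muscle ZNF644 ran from 0.26 to 2.04 in LWDL and from 3.32 to 4.19 in LWDM, a difference of 2.63 without overlap, with 2 of 8 LWDL and 7 of 7 LWDM arrays well above background. ZNF878 (1.40) and ZNF713 (1.05) were also higher in LWDM muscle. FOXJ1, a regulator of motile cilia, was above background in fattening muscle on 6 of 7 LWDM and no LWDL array, at least 1.24-fold higher by signal. In fetal muscle LWDM was higher for FOXD1 (1.27) and lower for IRF2 (-1.39), ZNF624 (from -1.32 to -0.52 against -0.08 to 1.25 in LWDL), ZNF829 (-1.04) and NR3C1 (-1.01). ZNF232 in fetal muscle ran from -1.33 to 0.07 in LWDL and from 0.44 to 1.54 in LWDM. In fattening fat ZNF219 differed by -1.30 and ZNF12 by -1.03. By the largest difference in a tissue of its tables, the members nearest to 2-fold were NR3C1 (-1.01) and ZNF12 (-1.03) past it and ZNF608 (-0.74) short of it, although the study lists ZNF608. Probes outside the tables carry no gene name here, so none can be set beside them.

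Markers of other cell types moved with the breed type in several of these groups. A marker carried a symbol here only where the study listed it as differing between breed types in some tissue. A breed difference was thus part of its choice, and the values below are a description. The mean of the 3 immune markers named of 15 was higher in LWDL liver at every age, with medians of -0.19 against -2.12 in fetuses, 0.12 against -0.71 in sucklings and -0.11 against -0.72 in fattening pigs. PECAM1, an endothelial marker, had medians of 1.67 in LWDL and 0.78 in LWDM suckling fat, of 2.18 and 1.21 in fattening fat, and of 0.34 and -1.96 in fetal muscle. PECAM1 was also higher in LWDL in fetal liver (-0.11 and -1.53) and fattening muscle (1.16 and 0.15). HBE1 had medians of -0.11 and -2.50 in suckling fat, 0.84 and -0.69 in suckling liver, and -0.99 and -2.25 in fattening liver. In fattening muscle HBE1 went the other way (-4.14 and -3.38), and in suckling muscle, whose labels are in doubt, both markers did. The cholangiocyte marker KRT19 had medians of 0.46 and 0.70 in fattening liver, where SOX9 differed, and the ranges of 0.23 to 1.32 and 0.36 to 1.11 overlapped. Of the 2 named biliary genes, KRT19 and ONECUT1, 1 was called there, against 2.19% of all probes tested. It was ONECUT1, lower in LWDM, while SOX9 was higher. The part of these markers in the values of the members was not tested.

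Animals also differed among themselves in the same way across tissues, if a replicate number marks the same pig. In fattening pigs the array farthest from its group's median had the same number in fat, liver and muscle for 7 of 29 member probes in LWDL (24.1%) and 8 of 29 in LWDM (27.6%), against 3.88% of all 27967 probes tested in all 3 tissues. In LWDL these were ID2 (number 7), IRF2 (6), KLF9 (5), ZNF335 (7), ZNF622 (8) and both probes of ZNF672 (4). In LWDM they were KLF9 (7), NR3C1 (2), STAT3 (4), ZNF324B (1), ZNF335 (5), ZNF615 (2), ZNF622 (5) and ZNF829 (6). STAT3 in LWDM 4 read -1.81 in fat, -0.89 in liver and -1.70 in muscle, the lowest of its group in each. The members were listed for differences between groups of these animals, so the share among them is a description.

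**Figure D5:**
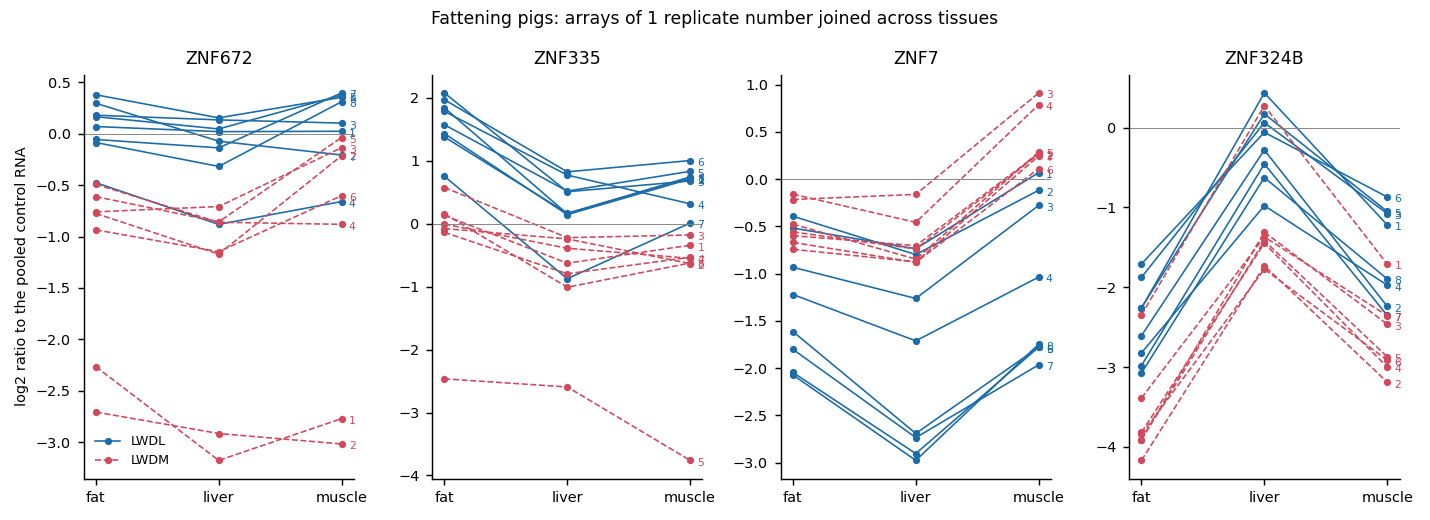
Levels of ZNF672, ZNF335, ZNF7 and ZNF324B in fat, liver and muscle of fattening pigs, as the log2 ratio of sample over sow liver control; lines join arrays of the same replicate number (LWDL solid, LWDM dashed). LWDM 5 is lowest for ZNF335 in all 3 tissues, LWDM 1 and 2 are low for ZNF672, and LWDM 1 is the highest LWDM animal for ZNF324B.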

How the data were processed

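The labels give 102 RNA samples of female pigs, 1 array each, on 27 slides of a pig array with 43221 probes besides controls. Per the file headers, Agilent Feature Extraction 9.5 gave the intensity of each spot in both dyes, and the authors' software subtracted background and normalized the dyes. The deposited log10 ratios of Cy5 over Cy3 were multiplied by minus log2(10), 3.32, to give log2 sample over control, and the authors' series table holds the same ratios with a largest difference of 0.005 (log10). The authors' lists of differential expression were used only for probe symbols, and their fold changes and p-values were not used. Members and gene lists were chosen with earlier results of these data known.

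limma 3.58.1 in R 4.3.3 was fitted on all probes that were well above background in Cy3 on every array of at least 1 group, with at least 3 values per group, and p-values were adjusted by Benjamini-Hochberg over all of them. Tissues and ages were averaged over breed types, and breed types were compared within each tissue and age as in the methods, whose Student test was an alternative. The other alternatives were normexp (offset 50) with loess, no filter or a stricter filter, slide blocks, replicate or tissue-pair blocks, the series table, and leaving out arrays. All 3 tests of the change of a breed difference with age were added after values were seen. Every member gene is named, and 1 other gene that fits the rule and 2 PPARA targets are not reported here or counted. Full values go to the 5 largest called differences per tissue or age comparison, and, between breed types, to genes listed for several tissues and the 3 largest without overlap. Of several probes, the brightest stands for a gene. In simulated data with 200 probes changed, 195 to 200 were recovered between tissues, 197 to 200 between ages, 111 to 197 between breed types and 170 to 184 for changes with age. The number of arrays limits the precision, and the number of LWD sows used as dams was small.

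Of 68 pairs of arrays of the same number in different tissues, outside the sucklings' muscle, 57 correlated best within their own number, but in fetal LWDL (3 of 6) and between liver and muscle of fattening LWDL (3 of 8) this was unclear. The labels do not say that a number marks a pig, and blocking by it changed no call between tissues (64 of 64 genes). Marker lists were of hepatocytes (0 of 14 named), adipocytes (3 of 13), skeletal muscle (14 of 32), immune cells (3 of 15), erythroid cells (HBE1), cholangiocytes (KRT19) and endothelium (PECAM1). Gene lists were of immediate-early, PPARA, PPARG, STAT3 and acute phase, amino acid and unfolded protein, glucocorticoid, biliary, BMP and ID, KRAB partner and HOX partner genes.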

Additional observations from a re-analysis of the deposited data

Results flagged for a closer look

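Of 106 groups of 4 to 10 arrays examined for the genes above, 12 held 1 array far from the rest, by the gap to its nearest neighbour over the whole range of the group. Chance gives about 1 in 20. In fattening LWDM pigs these were ZNF335 in animal 5, lowest in fat (0.765), liver (0.668) and muscle (0.873), ZNF324B in animal 1, highest in fat (0.571) and liver (0.774), and STAT3 in animal 4, lowest in fat (0.849). In fattening LWDL pigs they were ELF2 in muscle of animal 2, highest (0.597), ZNF335 in liver of animal 7, lowest (0.600), and ZNF672 in liver of animal 4, lowest (0.544). In sucklings they were ZNF672 in LWDM liver 3, highest (0.721), ZNF853 in LWDL fat 5, highest (0.742), and ZNF853 in LWDL liver 2, lowest (0.719).

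The difference between breed types changed with age, as later minus earlier age, for several genes. In fat, 7 of 36 members listed through another tissue were called, against 3.84% of all probes tested. Of these, the fat table does not list ZNF853 (-1.76, adjusted p = 2.63e-05), ZNF622 (-1.32, adjusted p = 0.000193), ZNF664-FAM101A (-1.20, adjusted p = 0.00939) and STAT3 (-1.29, adjusted p = 0.045). It lists ZNF335 (-2.84), ELF1 (-2.68) and ZNF77 (2.10). The other probe of ZNF77 gave 0.68 in fat and was not called. In liver, 4 of 29 were called against 2.5%, of which the liver table does not list ZNF622 (-1.14, adjusted p = 5.63e-05) and lists ZNF335 (-1.85), STAT3 (-1.08) and ATF5 (1.02). In muscle from fetuses to fattening pigs, 7 of 31 were called against 2.15%, and the muscle table lists each of them: ELF2 (-2.08), ZNF324B (-1.76), ZNF335 (-1.72), ZNF853 (-1.60), ZNF615 (-1.46), KLF9 (-1.18) and ZNF77 (1.29). The other probe of ZNF77 gave 0.56 in muscle and was not called. For listed genes a difference at one age was part of their choice, so their change with age is a description.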

How the results depend on the processing

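Counts of called members kept within 1.5 times of those reported in 156 of 193 alternatives, and among single genes 1166 calls held, 149 were lost and 1 reversed. With probes well above background on every array, calls were 12 between liver and muscle, 9 between fat and liver, 8 between fat and muscle, 10 between fetal liver and muscle, 9, 8 and 8 with age in liver, fat and muscle (5 months), and between breed types 5 in suckling fat, 4 in fattening fat and 3 in suckling liver. Under normexp and loess they were 9 between fat and muscle, 6, 6 and 14 with age, 4 in fattening fat, 1 in suckling liver (split 1 higher and 0 lower in LWDM against 3 and 2), 3 in fetal muscle (2 and 1 against 5 and 1) and 3 in fattening muscle (2 and 1 against 3 and 5), and 3 and 1 for the change with age in fat and liver. There the change with age of the breed difference of ZNF77 in muscle, 1.29 as reported, reversed to -0.12 (adjusted p = 0.577). Without a filter, 5 were called in suckling fat, 3 in fetal liver and 4 for the change with age in muscle. The methods' Student test called 4 in suckling fat and 3 in suckling liver.

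With the slide as a fixed block, on 1 mixed slide a group, 2 were called in suckling fat, 0 in fetal liver, 1 in suckling liver and 1 in fetal muscle. Replicate numbers do not pair pigs of different breed types or ages, and the replicate block on them called 4 in suckling fat and 4 for the change with age in muscle. Leaving out each array of either breed type in turn gave 5 to 10 in suckling fat (5 without LWDL 3 or LWDM 4), 1 to 3 in fetal liver (3 without LWDL 2 or LWDM 3, 2 without LWDL 1), 5 to 7 in suckling liver, 5 to 6 in fetal muscle and 0 in suckling muscle. Leaving out only the suckling LWDL arrays in turn, and for fetal liver also LWDL 2, gave 2 to 4 for the change with age in liver (2 without suckling LWDL 1), 6 to 7 in fat, 10 to 13 between suckling and fetal liver, 18 to 20 and 16 to 17 with age in liver and fat. The number of arrays and dim probes limit these counts, since a probe bright in 1 group passes the filter through it.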

Other observations

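ZNF772, a zinc finger gene whose listed pig symbol is ZNF792, fell into separate clusters of animals in fattening liver whatever the breed type. The pigs labelled LWDL 2, 4, 7 and 8 and LWDM 5 and 7 had levels of 1.86 to 2.52, and the others had levels of -0.69 to -0.09. In suckling liver the 5 LWDL pigs had levels of 2.22 to 3.17 and the 6 LWDM pigs of -0.05 to 0.41, while in fat and muscle of fattening pigs all 30 arrays lay between 0.46 and 1.56. No cause was tested.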
